A study of Mus musculus with 9 samples.

Results

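Histone genes of the mouse, most of which lie in a few clusters, were examined for open chromatin in alphaTC1 cells, a murine pancreatic alpha cell line that makes glucagon. The genes were taken by name from the RefSeq annotation of GRCm38.p6: protein-coding genes with an H1f, H2ac, H2bc, H3c or H4c symbol (67 genes) or with an older Hist1h to Hist4h name (4 more, H2bu2, H2aw, H4f16 and H4bc24). H4bc24 is the annotation's symbol for the H2B gene with the older name Hist1h2br. Of these 71 genes, 54 lie in the main cluster on chromosome 13, 10 on chromosome 3 and 2 on chromosome 11. The other 5, on chromosomes 6 and 15, lie outside these clusters and are here called lone genes. A consensus region belonged to a gene when it overlapped the gene extended by 1000 bp on both sides, which gave 50 of the 80827 regions. Membership was set by names and positions alone and by no measured value, but the rule was chosen with earlier results of these data known.

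Histones are the proteins that DNA is wound around: H2A, H2B, H3 and H4 form the nucleosome core, and H1 binds the linker between nucleosomes. The clustered genes are transcribed mainly in S phase, when new chromatin must be packed, and most of their mRNAs end in a stem-loop in place of a poly(A) tail. In human cells NPAT, switched on by cyclin E and CDK2, activates them together in nuclear bodies at the clusters, and subtype-specific factors bind short promoter elements, such as HINFP at H4 genes and POU2F1 at H2B genes. ATRX is a chromatin remodeler that, with the chaperone DAXX, deposits the replacement histone H3.3. SMNDC1 is a splicing factor with a Tudor domain.

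All 3 groups were alphaTC1 cells taken 5 days after transduction: Smndc1 shRNA, Atrx shRNA, and the empty vector used as control, with 3 libraries each that the labels call biological replicates. ATAC-seq, in which a transposase cuts accessible DNA, gave 5.29 to 8.15 M counts per library over the regions. The labels give 1 shRNA name per gene and describe no second or non-targeting shRNA. An shRNA acts on RNA, so accessibility at Smndc1 and Atrx does not check either knockdown. Regions were present at the alpha cell marker genes Gcg, Irx1, Irx2 and Pcsk2 and, of the beta cell markers, at Mafa and Nkx6-1 but not at Ins1, Ins2 or Pdx1. They were also present at the endothelial (Pecam1, Cdh5), immune (Ptprc, Spi1) and fibroblast (Col1a1, Pdgfra) markers. Of the duct and acinar markers, 1 of 2 each had regions (Sox9 and Cpa1), and 0 of 2 delta cell markers did. The presence of a region therefore does not tell the cell types apart. In each group the replicate 3 library had the lowest median level over the 50 histone regions: 14.9 CPM for Smndc1 shRNA, 15.5 CPM for Atrx shRNA and 13.9 CPM for the empty vector, against 18.7 to 25.5 CPM in the 6 other libraries. CPM is the count per M of library size after scaling by TMM (trimmed mean of M values), the normalisation used for every level given here. The part of this difference in each result below was not tested, beyond leaving these libraries out.

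The promoter sequences of 7 of these genes are shown because accessibility at or beside them is described below. They carry some of the short elements searched for, not all of them particular to a histone family. They are RefSeq windows on GRCm38.p6 from 250 bases before to 50 bases after the annotated start, written in the direction of transcription. Capitals mark, on either strand, the TATA box TATAAA, the CCAAT box CCAAT, the octamer ATTTGCAT, the H4 elements GGTCCG and TCAATC, and the H1 box AAACACA. The H4 genes are H4c11 (chr13:21734784-21735083, plus strand), H4c9 (chr13:22041313-22041612, minus strand) and H4c2 (chr13:23756687-23756986, plus strand). The others are H2bc12 (chr13:22035571-22035870, plus strand), H2ac15 (chr13:21753863-21754162, minus strand), H3c6 (chr13:23562336-23562635, minus strand) and H1f2 (chr13:23738557-23738856, plus strand).
H4c11: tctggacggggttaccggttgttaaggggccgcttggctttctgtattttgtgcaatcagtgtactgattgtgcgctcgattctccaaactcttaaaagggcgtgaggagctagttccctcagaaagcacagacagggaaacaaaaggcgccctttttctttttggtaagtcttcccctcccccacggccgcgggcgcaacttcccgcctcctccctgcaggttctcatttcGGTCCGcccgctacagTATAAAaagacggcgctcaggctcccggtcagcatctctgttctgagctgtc
H4c9: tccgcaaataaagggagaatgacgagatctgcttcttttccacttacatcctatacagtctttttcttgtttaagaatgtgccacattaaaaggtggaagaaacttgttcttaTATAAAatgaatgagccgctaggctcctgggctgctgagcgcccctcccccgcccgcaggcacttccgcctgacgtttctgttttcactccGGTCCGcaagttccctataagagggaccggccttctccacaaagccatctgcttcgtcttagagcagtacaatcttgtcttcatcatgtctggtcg
H4c2: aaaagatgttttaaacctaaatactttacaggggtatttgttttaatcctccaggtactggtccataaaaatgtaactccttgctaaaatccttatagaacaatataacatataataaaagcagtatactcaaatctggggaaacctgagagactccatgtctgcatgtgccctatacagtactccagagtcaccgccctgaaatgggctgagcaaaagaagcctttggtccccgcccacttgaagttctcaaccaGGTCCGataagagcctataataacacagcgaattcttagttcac
H2bc12: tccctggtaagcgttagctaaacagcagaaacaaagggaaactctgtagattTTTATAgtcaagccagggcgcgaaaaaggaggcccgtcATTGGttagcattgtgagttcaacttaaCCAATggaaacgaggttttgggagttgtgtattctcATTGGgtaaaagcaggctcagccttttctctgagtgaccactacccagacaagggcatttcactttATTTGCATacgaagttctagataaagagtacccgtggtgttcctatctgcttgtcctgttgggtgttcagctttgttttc
H2ac15: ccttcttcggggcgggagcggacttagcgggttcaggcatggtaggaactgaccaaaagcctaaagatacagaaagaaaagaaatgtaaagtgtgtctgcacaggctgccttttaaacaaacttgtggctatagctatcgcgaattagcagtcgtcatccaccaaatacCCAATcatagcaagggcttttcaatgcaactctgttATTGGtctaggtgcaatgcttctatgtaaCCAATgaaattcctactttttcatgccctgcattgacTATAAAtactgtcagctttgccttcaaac
H3c6: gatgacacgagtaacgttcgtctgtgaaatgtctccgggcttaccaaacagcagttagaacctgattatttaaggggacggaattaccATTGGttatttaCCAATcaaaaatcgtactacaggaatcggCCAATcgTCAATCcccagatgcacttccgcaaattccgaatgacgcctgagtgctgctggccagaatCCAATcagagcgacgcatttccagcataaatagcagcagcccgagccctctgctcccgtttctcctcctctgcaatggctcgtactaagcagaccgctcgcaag
H1f2: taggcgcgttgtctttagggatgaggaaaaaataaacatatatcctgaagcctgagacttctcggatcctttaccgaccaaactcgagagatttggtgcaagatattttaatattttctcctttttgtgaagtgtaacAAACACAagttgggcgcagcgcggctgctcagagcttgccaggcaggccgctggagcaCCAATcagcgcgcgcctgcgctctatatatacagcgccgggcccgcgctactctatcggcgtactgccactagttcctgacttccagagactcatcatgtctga

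Windows were listed for 66 of the 71 genes (67 windows, since H2bc6 has 2 starts), and the families differed in what they carried. The letters GGTCCG were in 11 of 12 H4 windows, against 8.25% of all 32851 RefSeq promoter windows, and all 11 matches ran in the direction of the gene, with a median first base 46 bases before the start. In the H4c2 sequence above, GGTCCG lies just after the annotated start. The TATAAA marked above begins at base -2 from the annotated start in H4c11, -137 in H4c9 and 21, after the start, in H2ac15. In H2bc12 it lies at -198 on the opposite strand. These marks are therefore letters and do not show a working TATA box of the annotated start. CCAAT was in 18 of 18 H2A, 17 of 17 H2B and 10 of 10 H3 windows but in 3 of 12 H4 windows, with 37.4% of all windows as the background. The octamer was in 7 of 18 H2A and 7 of 17 H2B windows and in no H1, H3 or H4 window, against 1.74% of all windows. All 7 octamers of H2B windows ran with the gene and all 7 of H2A windows ran against it; the H2bc12 window also covers much of the promoter of its divergent partner H2ac12. The H1 box was in 5 of 10 H1 windows, between 122 and 112 bases before the start, against 7.18% of all windows. TATAAA was in 35 of the 67 histone windows against 13.6% of all, and TCAATC in 6 against 7.38%. Matches of 2 different motifs overlapped each other in 1 histone window, that of H3c11. A match describes letters only, and windows of divergent partners share sequence.

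Of the 71 histone genes, 45 (63.4%) had a region, compared with 70.1% of the 21560 other protein-coding genes. Of those no longer than the longest clustered histone gene, 61.4% had one. That limit was 37455 bp, the length of H2bc6. Most histone genes are far shorter, so this set is not matched to them in length. By family, 6 of 10 H1 genes, 10 of 18 H2A, 11 of 18 H2B, 8 of 12 H3 and 10 of 13 H4 genes had one. By cluster, 39 of 54 genes on chromosome 13 and both genes on chromosome 11 had a region, whereas none of the 10 genes on chromosome 3 did. The chromosome 3 genes, 4 of them H2A, 2 H2B, 3 H3 and 1 H4, lie in a stretch of 117.1 kb between consecutive regions. A second empty stretch, 102.2 kb long, lies inside the chromosome 13 cluster and holds 12 histone genes from H2ac15 to H4bc24, none of which but H2ac15 had a region within 1000 bp. Consecutive regions were a median of 11.8 kb apart over the genome, and 95% of such gaps were at most 105 kb.

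Outside that stretch, the chromosome 13 genes without a region were the linker histone gene H1f4 and the testis genes H1f6, H2bc1 and H2ac1. H1f7, a spermatid linker histone gene on chromosome 15, had none either. Some histone promoters are near copies of each other. A stretch of 75 bases of the promoter was found again in a separate histone promoter for 10 genes (H3c14, H3c15, H2ac18, H2ac19, H2bc23, H4bc24, H2ac23, H2ac24, H4c17 and H4c18), and none of the 10 had a region. Of the 57 windows with no such copy, 43 belonged to genes with a region and 14 did not. How reads that match more than 1 place were treated is not given in the sources used here, and the part of these copies in the missing regions was not tested. Regions therefore say where open chromatin was listed, not that the other genes were closed.

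Where a histone gene had a region, it usually lay over the start. Of the 42 genes with both a region and a promoter window, 38 had a region that held the annotated start itself. The exceptions were H1f0, H1f1, H2ac15 and H4c9. The H4c9 region began 76 bp downstream of the start, inside the gene, and the H1f0 region 2451 bp downstream. The H2ac15 region began 1195 bp downstream, past the end of that short gene and between it and H4c12. Of 10 divergent H2A and H2B pairs, whose starts are 164 to 281 bp apart, 5 had 1 region over both starts (H2bc13 with H2ac13, H2ac12 with H2bc12, H2ac11 with H2bc11, H2ac8 with H2bc8, and H2bc7 with H2ac7). The other 5 pairs had no region between their starts. Of the 50 regions, 21 overlapped 2 or more histone genes within their 1000 bp extensions, divergent pairs or other neighbours, so their levels cannot be given to 1 gene.

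**Figure D1:**
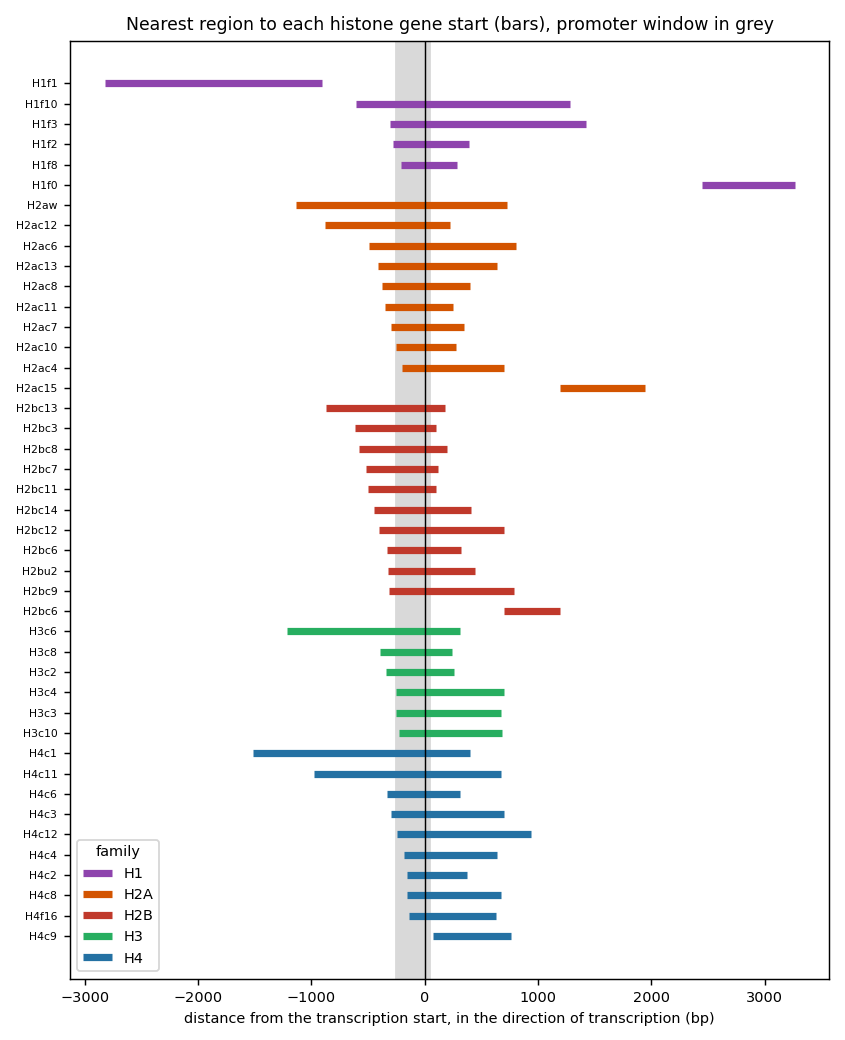
Extent of the region nearest to each start of the histone genes that have a region, in bp from the start in the direction of transcription, by family (colour), with the promoter window of 250 bp before to 50 bp after the start in grey. Most bars cross the start, and those of H1f1, H1f0, H2ac15, H4c9 and the second start of H2bc6 do not.

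Histone regions were among the more open regions of these cells, but less open than other promoters. Their median over the 9 libraries was 24.0 CPM per kb of region, against 9.16 CPM per kb for all 80827 regions, and 46 of the 50 exceeded that median. Only 7 were in the top 10% of all regions. The 9665 tested regions over other RefSeq promoters had a median of 39.9 CPM per kb, while the 33 histone regions over a promoter window had 25.2 and the 17 away from one had 16.6 CPM per kb. The histone regions were also wider, with a median of 735.5 bp against 501 bp for all tested regions. These levels are values per length and are given without a test.

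The highest level per length was at H4f16, an H4 gene outside the clusters on chromosome 6, with 88.0 CPM per kb. The replacement histone gene H2aj, which the name rule does not take, has a region nearby (chr6:136807970-136808820). Next were H1f2 region 2 on chromosome 13 with 57.0 and H2bu2 region 1 on chromosome 11 with 56.2 CPM per kb. Regions of the same gene are numbered in the order of the chromosome. H2aw, the H2A gene of the chromosome 11 pair, had 45.6 CPM per kb, and H1f10, a linker histone gene expressed outside S phase, 44.8. The weakest regions lay away from starts or at genes of other tissues: H2bc6 region 3 with 5.29, H4c12 region 2 with 6.46, H1f8, the oocyte linker histone gene, with 8.33, and the H2ac15 region with 8.55 CPM per kb. Core and linker families overlapped in their levels, with medians per kb of 36.4 at H1, 22.4 at H2A, 22.9 at H2B, 21.6 at H3 and 24.6 CPM at H4 genes.

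**Figure D2:**
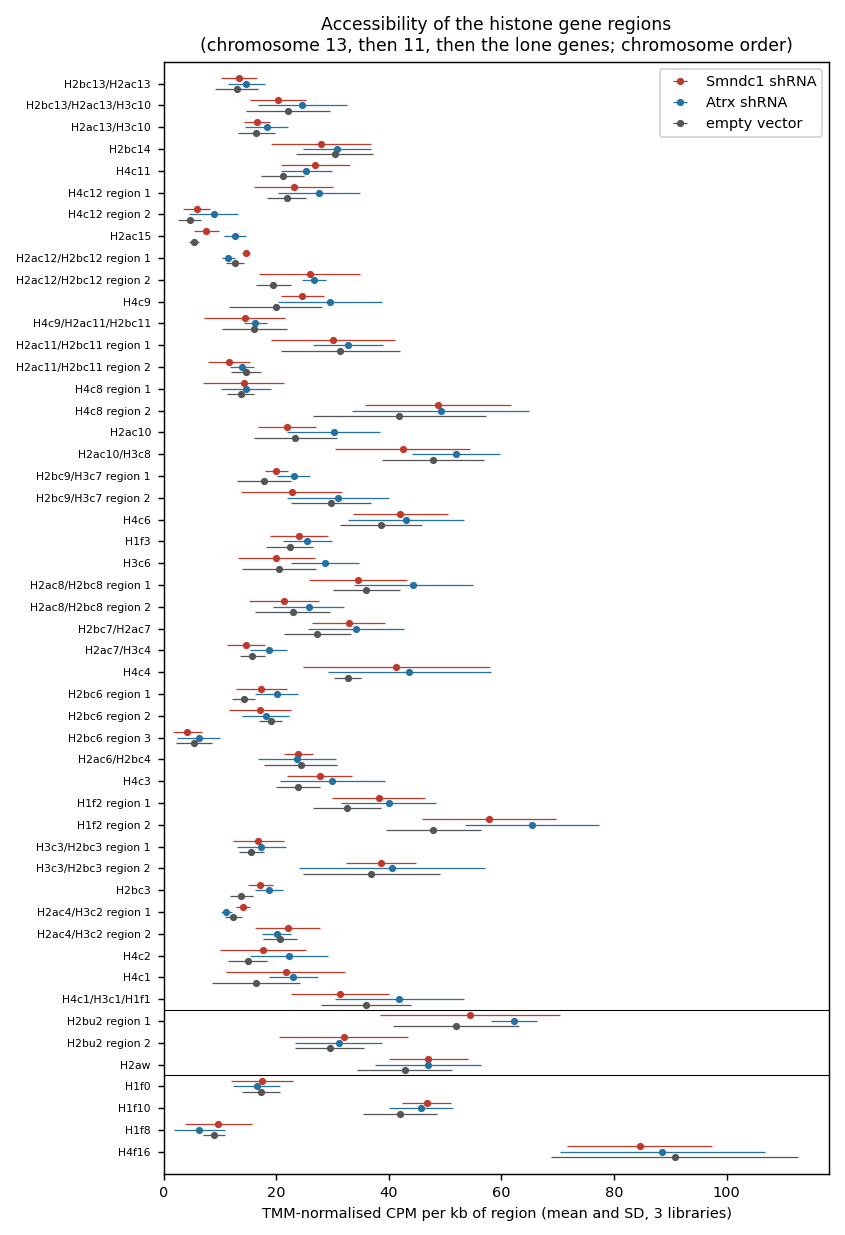
TMM-normalised CPM per kb (horizontal axis) of the 50 histone regions, in chromosome order, for the Smndc1 shRNA, Atrx shRNA and empty vector groups; points are means and bars are SD of 3 libraries. H4f16, H1f2 region 2, H2bu2 region 1 and H2ac10/H3c8 stand highest, H2bc6 region 3 lowest, and the bars of the 3 groups overlap at nearly every region.

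Taken as a sum, open chromatin at the histone genes overlapped between the groups. The 50 regions together had 1162, 1429 and 948.7 CPM in the Smndc1 shRNA libraries, 1538, 1311 and 1035 in the Atrx shRNA libraries and 1229, 1255 and 883.5 in the empty vector libraries. The means were 1180 ± 241 CPM for Smndc1 shRNA, 1295 ± 252 CPM for Atrx shRNA and 1123 ± 207 CPM for the empty vector (SD, n = 3 each). In each group replicate 3 was the lowest, and the range of the empty vector libraries overlapped both others. In bulk samples, a change in the share of cells with an open region and a change in openness per cell cannot be told apart.

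No histone region passed the test with Smndc1 shRNA. The edgeR quasi-likelihood test, fitted on all 80345 regions with enough counts, called 0 of the 50 against empty vector (adjusted p under 0.05), while it called 0.156% of all regions. At an unadjusted p under 0.05 it listed 0 of the 50 as well, against 8.09% of all regions. Of the 9665 tested regions over other RefSeq promoters it listed 285. The lowest adjusted p among the members was 0.702 (edgeR, Benjamini-Hochberg), with a median SE of 0.25 on the log2 scale. No member had its 3 Smndc1 shRNA libraries all above, or all below, the 3 empty vector libraries, compared with 5.76% and 7.02% of all regions. At other promoters 262 and 323 of the 9665 regions did. The median log2 fold change of the 50 was 0.10, against 0.02 over all regions, and 33 of the 50 were positive (66.0%, against 51.8% of all regions).

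With TMM factors that median turned on single libraries. It was -0.04 without Smndc1 shRNA replicate 2 (20 of 50 positive) and -0.02 without empty vector replicate 3 (23 positive). It was 0.23 without Smndc1 shRNA replicate 3 (44 positive), 0.17 without empty vector replicate 1 and 0.17 without empty vector replicate 2. Without replicate 3 of every group it was 0.10. A second fit, here called trended offsets, sets each library against a smooth curve of its counts on the mean count, so that libraries that differ in the contrast of strong and weak regions are made alike. It also called 0 of the 50 with Smndc1 shRNA, against 1.13% of all regions and with a lowest adjusted p of 0.134, and listed 4 at an unadjusted p under 0.05, against 12.5% of all regions. Its median was 0.14 (35 of 50 positive), and leaving out each library gave 0.08 to 0.20.

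Within the families, regions at H4 genes had a median log2 fold change of 0.21 with Smndc1 shRNA (11 of 14 positive) and those at H1 genes of 0.12 (6 of 7). Regions at H2A genes had -0.03 (9 of 19), at H2B genes 0.02 (11 of 22) and at H3 genes -0.01 (6 of 12). These are descriptions, and the families were not tested against each other. The region with the lowest p under trended offsets was H4c11, at 37.1, 56.1 and 40.6 CPM with Smndc1 shRNA and 38.1, 39.2 and 27.6 CPM with empty vector. Its libraries overlapped between the groups, and its log2 fold change was 0.35 ± 0.25 (SE) with TMM and 0.40 ± 0.14 with trended offsets.

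The 4 highest fold changes with Smndc1 shRNA (TMM, log2 ± SE) were at the H2ac15 region (0.49 ± 0.34), H2ac12/H2bc12 region 2 (0.41 ± 0.24), H4c1 (0.41 ± 0.30) and H4c12 region 2 (0.35 ± 0.55). H2ac12/H2bc12 region 2 covers the divergent promoter whose H2bc12 side is printed above. It had 23.2, 40.0 and 22.7 CPM with Smndc1 shRNA, against 22.4, 24.5 and 17.7 CPM with empty vector. Only replicate 2 stood clear of the empty vector libraries there. The lowest were at H2bc6 region 3 (-0.39 ± 0.63), H2bc9/H3c7 region 2 (-0.39 ± 0.25), H2ac11/H2bc11 region 2 (-0.33 ± 0.24) and H4c1/H3c1/H1f1 (-0.20 ± 0.27). All 8 had an adjusted p of 0.702 or more (edgeR), and that of H2bc6 region 3 turned positive (0.16) without empty vector replicate 3.

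**Figure D3:**
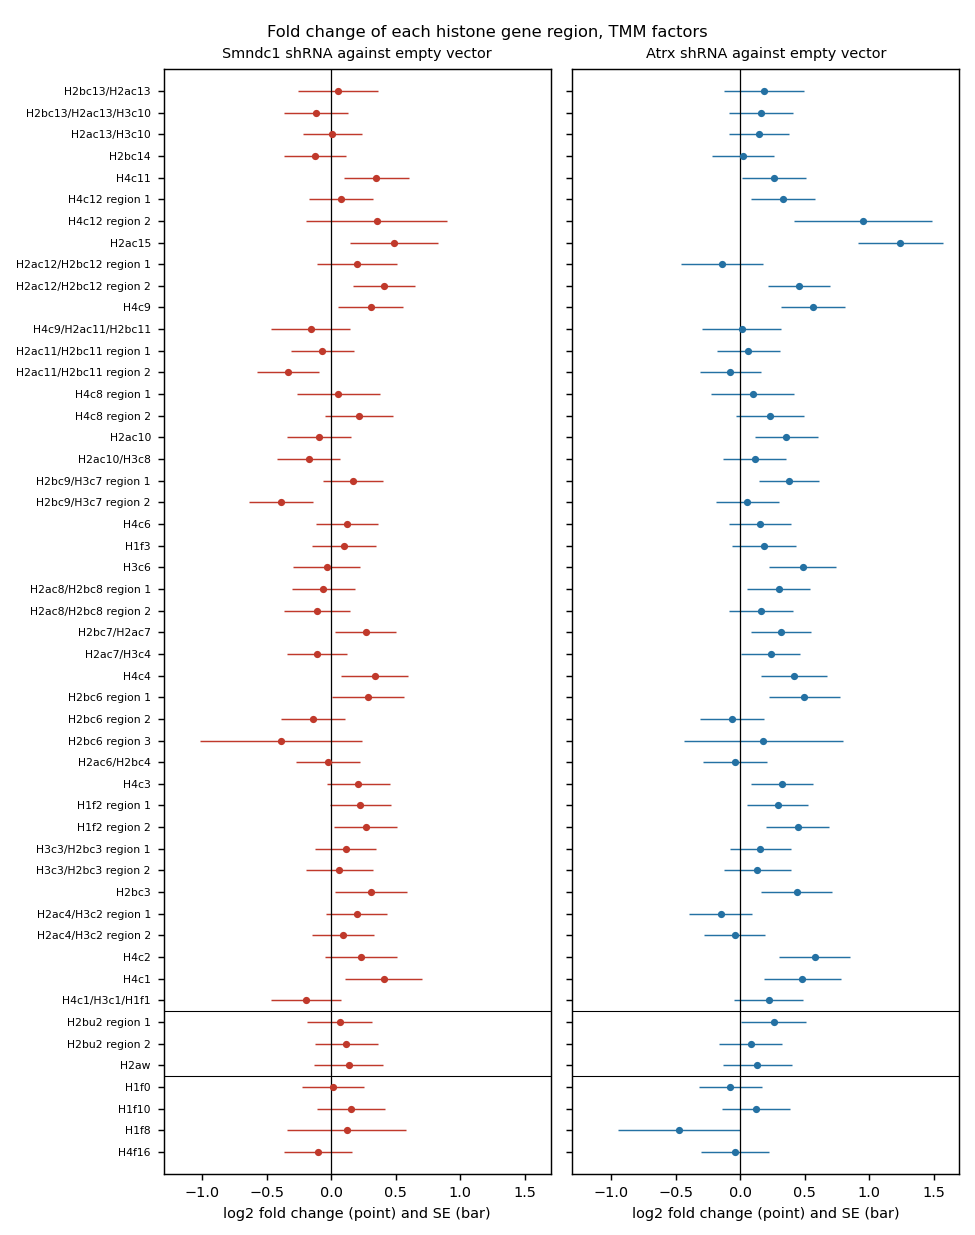
Log2 fold change (point) and SE (bar) of the 50 histone regions with TMM factors, in chromosome order, for Smndc1 shRNA against empty vector (left) and Atrx shRNA against empty vector (right). On the left 33 points and on the right 41 points lie above 0, most bars reach 0, and the H2ac15 region with Atrx shRNA (1.24) is the farthest out. Both panels share the empty vector libraries.

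With Atrx shRNA, fold changes at the chromosome 13 histone genes leaned to the positive side, by amounts that single regions did not resolve. With TMM factors 0 of the 50 regions were called, as were 0.0% of all regions. An unadjusted p under 0.05 was reached by 3, against 5.75% of all regions and 278 of the 9665 at other promoters. These 3 were the H2ac15, H4c9 and H4c2 regions. The median log2 fold change over the 50 was 0.18, against 0.01 over all regions, and 41 were positive (82.0%, against 50.7% of all). On chromosome 13, 37 of 43 were positive with a median of 0.22, and on chromosome 11 all 3 were, with a median of 0.13. All tested regions of chromosome 11 had a median of 0.09 (59.4% positive). Among the 4 regions of the lone genes 1 was positive, with a median of -0.06.

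Along the chromosome 13 cluster, the 8 regions from H2bc13 to H2ac15 were all positive with Atrx shRNA (median 0.22). Of the 6 from H2ac12 to H2bc11, 4 were (median 0.04), and of the 29 from H4c8 to H1f1, 25 were (median 0.23). Regions at H4 genes had a median of 0.29 (13 of 14 positive), at H1 genes 0.19 (5 of 7), at H2A genes 0.15 (14 of 19), at H2B genes 0.16 (18 of 22) and at H3 genes 0.15 (10 of 12). The summed level of the 43 chromosome 13 regions was 973.4 ± 206 CPM with Atrx shRNA and 821 ± 155 CPM with empty vector (SD, n = 3 each), so the spread between libraries exceeded the difference.

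The median of the 50 with Atrx shRNA was positive under each setting run, but its size rested on few libraries. It was 0.05 without Atrx shRNA replicate 1 (30 of 50 positive) and 0.05 without empty vector replicate 3 (33 positive). It was 0.35 without Atrx shRNA replicate 3 (46 positive), 0.29 without empty vector replicate 2, and 0.21 without replicate 3 of every group. With trended offsets the median was 0.21, 43 of 50 were positive, and leaving out each library gave 0.17 to 0.32. That fit listed 15 of the 50 at an unadjusted p under 0.05, against 9.58% of all regions, and called 1 region, against 0.269% of all. The histone regions were not alone in this. Of the 32 other regions within the bounds of the chromosome 13 cluster, the same fit listed 14 and called 1. Of the 9665 regions at other promoters it listed 1329.

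The called histone region was that of H2ac15, an H2A gene. It lies at chr13:21751965-21752717 (mm10), in the interval between H4c12 and H2ac15, outside both genes and on the edge of the empty stretch of 12 histone genes. Counts were 70, 44 and 56 in the Atrx shRNA libraries, against 25, 37 and 23 in the empty vector libraries, or 11.2, 8.40 and 9.09 CPM against 3.70, 4.80 and 3.60 CPM. The 3 Atrx shRNA libraries thus lay above all 3 empty vector libraries, and the region is weakly open in both. The log2 fold change was 1.24 ± 0.33 with an adjusted p of 0.313 (edgeR, TMM), and 1.28 ± 0.33 with an adjusted p of 0.0498 (edgeR, trended offsets).

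The call stood close to the threshold. With trended offsets it held without Smndc1 shRNA replicate 2 (adjusted p 0.0466, edgeR) or replicate 3 (0.0204), and was lost without any of the 7 other libraries, with adjusted p from 0.0515 without Atrx shRNA replicate 3 to 0.41 without Atrx shRNA replicate 1. In between, the adjusted p (edgeR) was 0.0641 when Smndc1 shRNA replicate 1 was left out and 0.187 when Atrx shRNA replicate 2 was, and 0.278, 0.128 and 0.155 without empty vector replicates 1, 2 and 3. The fold change itself stayed between 1.04 and 1.46 over these settings. The next region along the chromosome, H4c12 region 2, had 6.91, 2.86 and 3.57 CPM with Atrx shRNA and 2.07, 1.43 and 3.44 CPM with empty vector, a log2 fold change of 0.95 ± 0.54 that did not pass the test. Its groups overlapped and replicate 1 of Atrx shRNA was the highest.

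The 4 regions with all Atrx shRNA libraries above all empty vector libraries were H2ac15, H2ac12/H2bc12 region 2, H2bc6 region 1 and H2bc3, against 4.83% of all regions, and none had them all below, against 5.65%. At other promoters 108 of the 9665 regions had the Atrx shRNA libraries all above and 377 all below. H2ac12/H2bc12 region 2 had 32.1, 29.0 and 27.4 CPM with Atrx shRNA and 22.4, 24.5 and 17.7 CPM with empty vector (log2 fold change 0.45 ± 0.24, adjusted p 0.893, edgeR). The groups are apart by a small margin there, and trended offsets gave 0.50 ± 0.17 with an adjusted p of 0.197 (edgeR).

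H4 genes gave the next highest fold changes. The H4c9 region, which covers the body of that gene, had 26.5, 20.6 and 13.8 CPM with Atrx shRNA and 18.8, 14.7 and 7.51 CPM with empty vector (log2 fold change 0.57 ± 0.25, adjusted p 0.813, edgeR). At H4c2 the levels were 15.3, 12.4 and 7.95 CPM with Atrx shRNA and 9.77, 7.91 and 6.11 CPM with empty vector (0.58 ± 0.28, adjusted p 0.855, edgeR). In both, the replicate 3 libraries were lowest in each group and the groups overlapped. The lowest fold changes with Atrx shRNA were at H1f8 (-0.47 ± 0.47), H2ac4/H3c2 region 1 (-0.15 ± 0.24), H2ac12/H2bc12 region 1 (-0.14 ± 0.32) and H2ac11/H2bc11 region 2 (-0.08 ± 0.24), all with adjusted p of 0.969 or more (edgeR). The last of these turned positive, to at most 0.02, without Atrx shRNA replicate 3 or empty vector replicate 2.

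**Figure D4:**
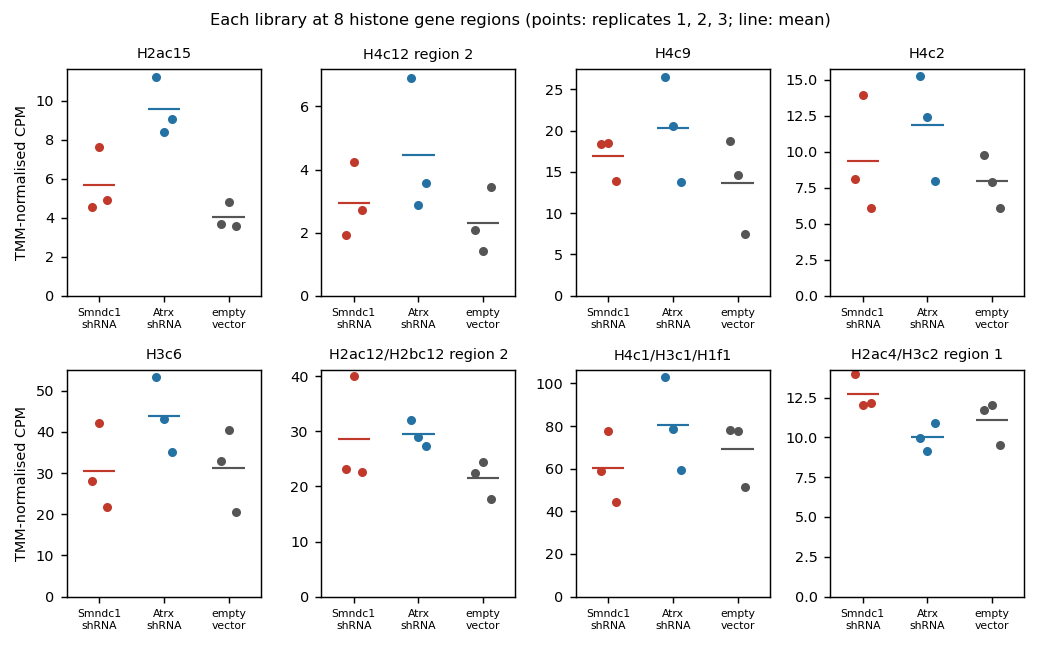
TMM-normalised CPM of each library (points, replicates 1 to 3 from left to right) with the group mean (line) at 8 histone regions, for Smndc1 shRNA, Atrx shRNA and empty vector. At H2ac15 the Atrx shRNA points (8.40 to 11.2) stand above both other groups, and at H4c9, H4c2, H3c6 and H4c1/H3c1/H1f1 replicate 3 is the lowest of each group.

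H3c6, an H3 gene, came next under trended offsets. Its region had 53.3, 43.1 and 35.1 CPM with Atrx shRNA and 32.9, 40.5 and 20.5 CPM with empty vector, with a log2 fold change of 0.48 ± 0.26 (adjusted p 0.894, edgeR, TMM) and 0.51 ± 0.15 (adjusted p 0.0905, edgeR, trended offsets). The groups overlapped. Without Smndc1 shRNA replicate 3, which enters only the shared estimate of the spread and the offsets, the trended fit called it (adjusted p 0.0408, edgeR). H1f2 region 2, at the linker histone gene whose promoter is printed above, had 0.45 ± 0.24 with TMM and 0.47 ± 0.15 with trended offsets (adjusted p 0.17, edgeR).

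The positive lean on chromosome 13 was not confined to the histone regions. The cluster spans 2219.2 kb and holds 50 other protein-coding genes and 32 other regions, of which 27 were positive with Atrx shRNA, with a median log2 fold change of 0.31. The 11 other regions at non-histone coding genes that overlap the cluster bounds had a median of 0.19 (9 positive). The 1903 tested regions of chromosome 13 outside the cluster had a median of -0.01 (49.1% positive), and the 9665 regions at other promoters a median of -0.03 (44.2% positive). With Smndc1 shRNA the 32 other regions had a median of 0.11 (20 positive), the rest of chromosome 13 had -0.07 and other promoters had -0.03. These are values with TMM factors. Trended offsets gave 0.15, -0.07 and 0.02 for the same sets, so the sign at other promoters depended on the normalisation. Both comparisons share the empty vector libraries, and no test was made of one group of regions against another.

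**Figure D5:**
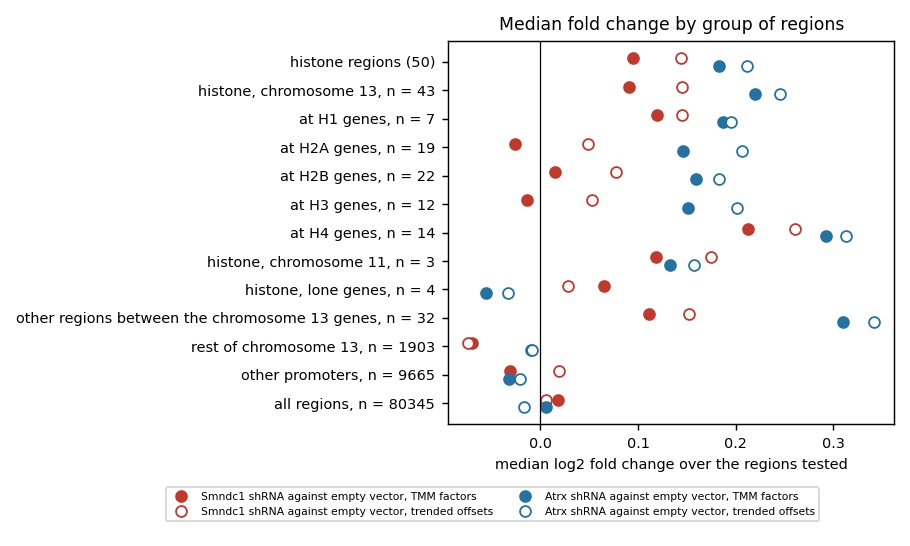
Median log2 fold change against empty vector (horizontal axis) for Smndc1 shRNA and Atrx shRNA, over the histone regions, their families, other regions between the chromosome 13 histone genes, and wider sets; filled points are TMM factors and open points trended offsets, with no error shown. With Atrx shRNA the chromosome 13 histone regions (0.22) and their neighbours (0.31) lie above all regions (0.01) and other promoters (-0.03); shared regions count in each family.

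Setting the knockdowns against each other, 0 of the 50 regions were called for Smndc1 shRNA against Atrx shRNA with TMM factors (0.0759% of all regions were) and 0 with trended offsets (0.592% of all were). At an unadjusted p under 0.05 there were 2 with TMM factors (5.4% of all regions) and 5 with trended offsets (9.3% of all regions). Of the 9665 regions at other promoters there were 237 and 1098. The median log2 fold change of the 50 was -0.13, against 0.00 over all regions, and 10 of 50 were positive, as were 40196 of the 80345 regions tested. Leaving out Smndc1 shRNA replicate 2 gave -0.31, and leaving out its replicate 3 gave 0.01. Leaving out Atrx shRNA replicate 1 gave -0.01, and leaving out its replicate 3 gave -0.25.

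Lower in Smndc1 shRNA without overlap was the H2ac15 region, with 4.56, 7.63 and 4.91 CPM against 11.2, 8.40 and 9.09 CPM in Atrx shRNA (log2 fold change -0.75 ± 0.32, adjusted p 0.762, edgeR; 5.15% of all regions were lower without overlap). Higher without overlap were 2 regions, against 5.03% of all. H2ac4/H3c2 region 1 had 14.0, 12.03 and 12.2 CPM in Smndc1 shRNA and 9.96, 9.16 and 10.9 CPM in Atrx shRNA (0.35 ± 0.24). H2ac12/H2bc12 region 1, just beside the divergent promoter, had 7.35, 7.63 and 6.94 CPM in Smndc1 shRNA and 5.78, 5.15 and 6.33 CPM in Atrx shRNA (0.34 ± 0.32). Neither passed the test. H3c6 had 27.9, 42.2 and 21.7 CPM in Smndc1 shRNA, against 53.3, 43.1 and 35.1 CPM in Atrx shRNA (-0.52 ± 0.26 with TMM, adjusted p 0.918; -0.50 ± 0.15 with trended offsets, adjusted p 0.0824, edgeR). Without Smndc1 shRNA replicate 2 the trended fit called it lower (-0.67, adjusted p 0.0218, edgeR). Among the highest fold changes were also H1f8 (0.59 ± 0.47) and H2ac4/H3c2 region 2 (0.13 ± 0.24), and among the lowest H4c12 region 2 (-0.60 ± 0.53) and H2bc6 region 3 (-0.57 ± 0.63). Those of H1f8 and H2ac4/H3c2 region 2 turned negative without Smndc1 shRNA replicate 3 (H1f8) and without Smndc1 shRNA replicate 2 (H2ac4/H3c2 region 2).

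The 7 regions outside chromosome 13 overlapped between the groups in each comparison. H4f16 had 64.6 ± 9.79 CPM for Smndc1 shRNA, 67.7 ± 13.9 CPM for Atrx shRNA and 69.4 ± 16.7 CPM for the empty vector (SD, n = 3 each). At H1f10 the level was 88.0 ± 8.16 CPM for Smndc1 shRNA, 86.2 ± 10.6 for Atrx shRNA and 79.1 ± 12.3 for the empty vector. H2aw had 87.5 ± 13.1 CPM in Smndc1 shRNA, 87.4 ± 17.5 in Atrx shRNA and 79.7 ± 15.7 in empty vector libraries, and H2bu2 region 1 had 41.6 ± 12.3, 47.6 ± 3.14 and 39.7 ± 8.56 CPM in Smndc1 shRNA, Atrx shRNA and empty vector libraries. H1f0, the linker histone gene of resting cells, had 14.2 ± 4.51 CPM for Smndc1 shRNA, 13.5 ± 3.39 for Atrx shRNA and 14.2 ± 2.804 for the empty vector, at a region past its 3' end. The log2 fold changes of the 7 regions against empty vector ran from -0.47 ± 0.47 (H1f8, Atrx shRNA) to 0.26 ± 0.25 (H2bu2 region 1, Atrx shRNA), all smaller than or close to their SE.

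Genes that work with the histone genes gave few calls. Of 9 replacement histone genes, which are made outside S phase, 8 had regions (20 in all), as did all 16 genes of histone transcription and mRNA processing (31 regions) and all 10 histone chaperone genes (34 regions). With TMM factors none of these regions was called in any of the 3 comparisons, and at an unadjusted p under 0.05 there were 1, 1 and 6 with Smndc1 shRNA, 1, 4 and 2 with Atrx shRNA, and 1, 1 and 3 between the knockdowns in the 3 lists. Over all regions the shares were 8.09% with Smndc1 shRNA, 5.75% with Atrx shRNA and 5.4% between the knockdowns. With trended offsets, which called 1.13%, 0.269% and 0.592% of all regions in these comparisons, the 3 lists together had 2, 1 and 2 calls. Trended offsets called 1 region of H3f3a, which encodes H3.3, higher with Smndc1 shRNA (1.53 ± 0.43, adjusted p 0.0379, edgeR), at 5.76 ± 1.18 CPM against 1.88 ± 0.29 CPM with empty vector (SD, n = 3 each). That region was about as high with Atrx shRNA, at 5.82 ± 1.71 CPM, just short of a call (1.6 ± 0.425, adjusted p 0.0586, edgeR, trended offsets). The main H3f3a region, the strongest, had 82.8 ± 19.5 CPM with Smndc1 shRNA and 94.8 ± 21.1 CPM with empty vector and was not called.

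The trended fit also called a region of Pou2f1, which encodes the octamer factor, higher with Atrx shRNA (0.71 ± 0.15, adjusted p 0.0067, edgeR), at 39.1 ± 10.005 CPM against 24.2 ± 3.86 CPM with empty vector. A neighbouring and stronger Pou2f1 region was lower in Smndc1 shRNA, at 82.1 ± 29.7 CPM, than in Atrx shRNA, at 113.8 ± 32.3 CPM (-0.42 ± 0.11, adjusted p 0.0315, edgeR). At Ubn2, a subunit of the H3.3 chaperone complex of HIRA, 1 region was higher with Smndc1 shRNA (32.8 ± 7.65 CPM) than with empty vector (23.2 ± 4.69 CPM; 0.56 ± 0.16, adjusted p 0.0442, edgeR). Another, weak region of Ubn2 was lower in Smndc1 shRNA (2.55 ± 0.75 CPM) than in Atrx shRNA (6.76 ± 0.15 CPM; -1.43 ± 0.39, adjusted p 0.0486, edgeR). Leaving out each library in turn, the Pou2f1 call with Atrx shRNA held in 6 of 9 fits, being lost without Atrx shRNA replicate 1 or empty vector replicates 1 or 2. The others held in 1 to 3 of 9: H3f3a without Atrx shRNA replicate 3, the second Pou2f1 region without Smndc1 shRNA replicate 2, Atrx shRNA replicate 3 or empty vector replicate 3, the first Ubn2 region without replicate 3 of either knockdown, and the second without empty vector replicate 3.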

How the data were processed

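The deposited table holds whole-number counts for 80827 consensus regions in 9 libraries, raw and unscaled, and a second deposited file gives each region's bounds on mm10 (GRCm38). Reads were 75 bp paired-end, per the labels' protocols. The submitters' processing notes name MACS2 2.2.7.1, Bowtie2 2.4.4, bedtools 2.27.1, SAMtools 2.8.0 and deepTools 3.5.1, without roles, and what was counted (reads, fragments or insertions) is not given in the sources used here. Each of the 9 count columns matched a labelled sample.

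Counts were tested with edgeR 4.0.16 in R 4.3.3: quasi-likelihood F test, TMM factors, filterByExpr with a minimum count of 10, robust dispersion, all 9 libraries in 1 fit with 1 coefficient per group, and Benjamini-Hochberg adjustment over 80345 regions (482 fell below the filter; all 50 histone regions passed). A region was called at an adjusted p under 0.05. SE is the log2 fold change over the root of F. The fit was also run on simulated counts, drawn from the mean level of each region and the library totals. Those libraries did not differ in the contrast of strong and weak regions. The simulation therefore cannot show whether TMM factors or trended offsets suit these data. Library totals of 5.29 to 8.15 M put 23 to 70 counts on the H2ac15 region, so counting error limits weak regions. Gene bounds and promoter windows came from RefSeq tables of GRCm38.p6, of which 66 of the 71 genes had a window; region sequences were not read.

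Named were regions called in either fit, the highest and lowest level in each family, the 4 highest and 4 lowest fold changes per comparison among regions of at least 2 CPM, and the strongest region of each histone gene off chromosome 13. H4c11, H1f2 region 2, H2bc6 region 1, H2bc3 and H2ac10/H3c8 fall outside that rule and were named after their values were seen. The members and lists were chosen with earlier results of these data known. Alternatives were trended offsets (loess, span 0.3), DESeq2 1.42.0 and its size factors, a minimum mean count of 50 in place of the filter, no filter, 6 libraries, a replicate block, libraries left out, and genes extended by 0 or 5 kb. Leaving out libraries under trended offsets was chosen after seeing the data. Tables and figures used Python 3.11.15, pandas 2.3.3, numpy 2.4.6 and matplotlib 3.10.9.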

Additional observations from a re-analysis of the deposited data

How the results depend on the processing

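With TMM factors the count of histone regions called was 0 in all 3 comparisons, and it stayed at 0 with each library left out (0 to 0) and with DESeq2, its size factors, no filter, a minimum mean count of 50, 6 libraries, or genes extended by 0 or 5 kb. For Atrx shRNA against empty vector it was 1 with trended offsets, 1 with the replicate block, 2 with the replicate block and trended offsets, and 0 to 2 with trended offsets and each library left out. For Smndc1 shRNA against Atrx shRNA it was 1 with the replicate block and trended offsets and 0 to 1 with trended offsets and each library left out; for Smndc1 shRNA against empty vector it was 0 in all of these. The regions were H2ac15 (1.26 with the block, adjusted p 0.0332, against 0.313 without it; 1.30 with block and trended offsets, adjusted p 0.0106, edgeR) and H3c6 (-0.52 against Atrx shRNA, 0.54 for Atrx shRNA against empty vector, block and trended offsets). The labels state no pairing by replicate number, so the replicate block was no paired analysis by design. Deviations of same-numbered libraries correlated from -0.04 to 0.42, and those of differently numbered libraries from -0.375 to 0.299. The highest were between the replicate 3 libraries of different groups (0.313, 0.352 and 0.419). Whether the numbers stand for something the libraries share was not tested. Medians ranged, with each library left out under TMM factors, from -0.04 to 0.23 for Smndc1 shRNA and 0.05 to 0.35 for Atrx shRNA against empty vector, and from -0.31 to 0.01 between the knockdowns. Fold changes that reversed were H2bc6 region 3 with Smndc1 shRNA (0.328 without replicate 3 of every group, -1.008 to 0.161 with each library left out) and H2ac11/H2bc11 region 2 with Atrx shRNA (0.012 with block and trended offsets, -0.219 to 0.015 with each library left out). Between the knockdowns H1f8 ran from -0.023 to 1.239 and H2ac4/H3c2 region 2 from -0.073 to 0.312 with each library left out; the cause was not tested. Weak regions such as H4c12 region 2, at 1.43 to 6.91 CPM, are limited by depth, and the median SE of a histone region, 0.25 on the log2 scale, limits what these 3 libraries a group can show.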
